A study of Mus musculus with 9 samples.

Results

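Hair and nail keratins were followed in mouse epidermis as a set of 10 genes: Krt25, Krt27 and Krt71 of the inner root sheath, Krt31, Krt33b, Krt34, Krt35 and Krt86 of the hair shaft, Krt84, and Krt79. The set was given by name, and every probe set assigned to exactly 1 of these symbols was used. All 10 genes were represented, each by a single probe set, out of 18193 measured genes. The epidermis came from adult mice on the hairless SKH1 background (5 backcross generations), all of them homozygous for a floxed Alox12b allele, which encodes an epidermal lipoxygenase needed for the skin barrier. In 5 mice (Alox12b fl/fl Cre, genotype p/p +/cre, called inactivated here) the cytokeratin K14 promoter additionally drove Cre-ERT2, a recombinase that tamoxifen activates, and 4 littermates (Alox12b fl/fl, genotype p/p +/+, called controls) carried no Cre. Mice of both groups received 3 injections of 1 mg tamoxifen at 8 weeks of age, and epidermis scratched from frozen skin was taken 6 days after the treatment, with 1 expression array per mouse. Cre went with inactivation on every array, so the 2 cannot be told apart.

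Keratins form the intermediate filaments of epithelial cells as pairs of a type I and a type II protein. Hair keratins are cysteine-rich keratins of the hair shaft, the nail plate and the tongue papillae, where keratin-associated proteins crosslink them. The inner root sheath, which moulds the growing shaft, has its own keratins, and both sets are made in the lower follicle during hair growth. Krt79 is not a hair or nail keratin by its known site: in the mouse it marks the hair canal and the duct of the sebaceous gland. Hairless mice shed their first coat and keep only remnants of follicles and cysts.

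All values are log2 expression (array medians 4.34 to 4.39 in the inactivated group, 4.38 to 4.42 in controls), and differences are inactivated minus control ± SE from limma. Array values are compressed near background, so folds of dim genes are understated, and the number of arrays limits the precision. The labelled tissue was checked with Krt10, the keratin of differentiating epidermis, which read 13.05 to 13.44 on the inactivated arrays and 13.47 to 13.51 on the controls. Its difference of -0.18 ± 0.09 did not pass (limma with Benjamini-Hochberg adjustment, adjusted p = 0.142), though the groups did not overlap. Krt10 read the highest value of each control array, so the difference may be understated and does not show an equal share of epidermis. Alox12b itself was higher in the inactivated group, at 9.89 ± 0.29 (SD, n = 5), against 9.28 ± 0.10 (SD, n = 4) in controls (0.61 ± 0.14, limma adjusted p = 0.00694). The sources used here do not place its probe set relative to the floxed part, so this checks nothing about the deletion.

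The comparison asked which hair and nail keratins differed once Alox12b had been inactivated. Krt84 rose 3.30-fold, Krt79 fell 1.87-fold, and each did so on all 5 inactivated arrays. Krt71 and Krt33b rose by 0.70 and 0.62, and Krt25, Krt27, Krt31, Krt34, Krt35 and Krt86 did not pass, with differences of 0.29 to 1.86. In all, 3 of the 10 genes were higher, where 12.7% of 45037 probe sets were higher, and 1 was lower, where 16% were (limma, adjusted p under 0.05), or 28.6% in either direction. Over 18193 genes read through 1 probe set each, 15.5% were higher and 18.9% lower, or 34.4% in either direction. The median difference of the set was 0.72, against 0.03 over all probe sets. Krt84 and Krt71 lay without overlap above the controls (11.4% of probe sets and 14% of genes did). Krt79 lay without overlap below them (14.3% of probe sets and 17.6% of genes did).

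The inner root sheath and hair shaft keratins were uneven within the inactivated group, and inactivated replicates 3 and 4 stood apart from the others. On each of these 2 arrays 7 of the 10 genes lay at least 1 above their control mean, where 2.65% and 2.14% of all probe sets did. On inactivated replicate 1 it was 2 genes (2.73% of probe sets), on replicate 2 it was 1 gene (2.15%) and on replicate 5 it was 1 gene (1.45%), and Krt84 was among them each time. Above the highest control lay 8, 5, 9, 9 and 4 of the 10 genes on inactivated replicates 1 to 5, where 32.6%, 36.9%, 37.2%, 30.8% and 28.3% of probe sets did. Without inactivated replicates 3 and 4, a comparison chosen after seeing the data, 1 gene was higher (Krt84) and 1 lower (Krt79), and the median difference was 0.32.

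**Figure D1:**
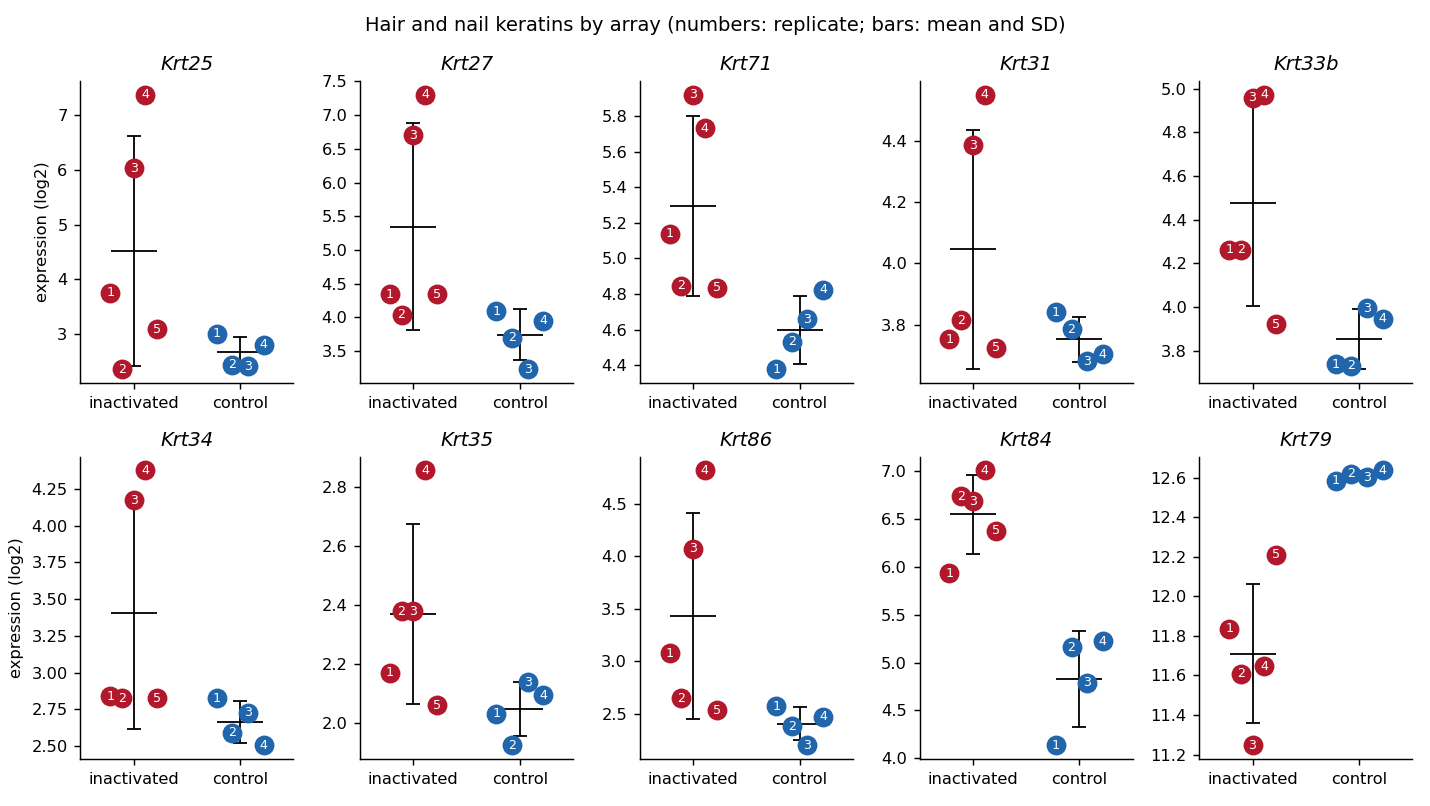
Expression (log2, y axis, scaled per gene) of the 10 genes on each array, with inactivated arrays in red at the left and control arrays in blue at the right, replicate numbers in the points, and mean and SD as bars. Inactivated replicates 3 and 4 are the highest 2 points for Krt25, Krt27, Krt71, Krt31, Krt33b, Krt34 and Krt86, whereas Krt84 and Krt79 separate all 5 inactivated arrays from all 4 controls.

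Promoter sequence is shown for the keratins that lay farthest above their control means on replicates 3 and 4 (Krt25, Krt27), for a hair shaft keratin (Krt34), and for the genes that separated the groups (Krt84, Krt79). Each is the 150 bases before the annotated start, 5′ to 3′ on the gene's strand, from RefSeq (GRCm38.p6), and capitals mark matches to TATAAA or CTTTGA:
Krt25 (chr11:99322952-99323101, minus strand): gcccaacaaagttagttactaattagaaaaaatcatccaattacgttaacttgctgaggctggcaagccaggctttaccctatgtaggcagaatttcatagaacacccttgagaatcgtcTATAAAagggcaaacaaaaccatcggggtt
Krt27 (chr11:99351119-99351268, minus strand): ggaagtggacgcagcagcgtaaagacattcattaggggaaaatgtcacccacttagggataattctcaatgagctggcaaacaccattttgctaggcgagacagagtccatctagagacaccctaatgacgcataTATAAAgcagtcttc
Krt34 (chr11:100041555-100041704, minus strand): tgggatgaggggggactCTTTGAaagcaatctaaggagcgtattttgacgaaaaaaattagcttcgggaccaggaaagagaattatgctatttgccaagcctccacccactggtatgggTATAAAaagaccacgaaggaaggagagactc
Krt84 (chr15:101532821-101532970, minus strand): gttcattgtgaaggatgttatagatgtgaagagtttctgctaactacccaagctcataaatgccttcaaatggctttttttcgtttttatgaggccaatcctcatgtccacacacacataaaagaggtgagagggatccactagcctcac
Krt79 (chr15:101940325-101940474, minus strand): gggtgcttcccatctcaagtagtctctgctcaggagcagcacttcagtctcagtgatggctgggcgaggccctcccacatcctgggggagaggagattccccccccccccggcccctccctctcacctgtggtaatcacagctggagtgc
Of the 10 genes, 8 had a promoter entry. In the 250 bases before the start, TATAAA, the element to which the TBP protein binds in core promoters, stood on either strand in 7 of these 8, and in 12.4% of all 32851 promoter entries. In Krt25 it began 30 bases before the start and in Krt34 31 bases before it, whereas in Krt84 it lay on the opposite strand, 206 bases before the start, outside the stretch shown. In Krt27, Krt31, Krt33b and Krt71 it began 15, 29, 47 and 40 bases before the start. Whether these matches act in the core promoter was not tested. CTTTGA, the core of LEF1 and TCF sites, was found in Krt31, Krt33b and Krt34, against 13.8% of all entries. GATAAG, the letters that Gata3 and its relatives bind, was found in Krt71 alone, against 6.55% of all entries.

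Among the inner root sheath keratins, Krt25, a type I keratin, read 3.75, 2.35, 6.03, 7.37 and 3.08 on inactivated replicates 1 to 5, against 3.00, 2.43, 2.40 and 2.80 on control replicates 1 to 4. Replicates 3 and 4 stood far above every control, while inactivated replicate 2 lay below the lowest control, so the groups overlapped. The difference was 1.86 ± 0.88 (95% interval -0.09 to 3.80, not adjusted), and it did not pass (limma adjusted p = 0.14). Without inactivated replicates 3 and 4 it was 0.40.

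Krt27, another type I keratin of the inner root sheath, read 4.34, 4.04, 6.71, 7.30 and 4.34 on the inactivated arrays, against 4.09, 3.70, 3.23 and 3.95 on the controls. The high readings again belonged to replicates 3 and 4, and inactivated replicate 2 lay within the control range. The difference of 1.60 ± 0.65 did not pass (limma adjusted p = 0.0899), and it was 0.50 without replicates 3 and 4. Its mean over all arrays passed the filter on dim probe sets only through the inactivated group.

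Krt71, the type II partner of these keratins, read 5.14, 4.85, 5.92, 5.73 and 4.84 on the inactivated arrays, against 4.38, 4.53, 4.66 and 4.82 on the controls. The groups touched without overlapping, since inactivated replicate 5 lay just above control replicate 4. Krt71 rose by 0.70 ± 0.23 (limma adjusted p = 0.0405). This call was lost without inactivated replicate 1, 3 or 4 or without any 1 of the controls, with differences of 0.54 to 0.81 and adjusted p of 0.0214 to 0.104 over the 9 fits that left out 1 array. Without replicates 3 and 4 together the difference was 0.34 (adjusted p = 0.0903).

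Among the keratins of the hair shaft, Krt33b, a type I keratin of the cortex, read 4.26, 4.26, 4.96, 4.97 and 3.92 on the inactivated arrays, against 3.74, 3.73, 3.99 and 3.95 on the controls. Inactivated replicate 5 lay within the control range and the other 4 above it. Krt33b rose by 0.62 ± 0.21 (limma adjusted p = 0.0449), with differences of 0.50 to 0.76 and adjusted p of 0.0114 to 0.109 when 1 array was left out. The call was lost without inactivated replicate 2, 3 or 4 or any 1 control, and without replicates 3 and 4 together the difference was 0.30 (adjusted p = 0.11).

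Krt86, a type II hair keratin of the cortex, read 3.07, 2.65, 4.07, 4.82 and 2.53 on the inactivated arrays, against 2.57, 2.38, 2.20 and 2.47 on the controls. Replicates 3 and 4 were highest, replicate 1 followed, and replicate 5 lay within the control range. The difference was 1.02 ± 0.41 (limma adjusted p = 0.0897), and it passed without inactivated replicate 5 (1.25, adjusted p = 0.0406). Without replicates 3 and 4 it was 0.35.

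Krt34, a type I hair keratin, read 2.84, 2.83, 4.17, 4.38 and 2.83 on the inactivated arrays, against 2.83, 2.59, 2.73 and 2.51 on the controls. Replicates 3 and 4 lay far above the controls, the other 3 inactivated arrays close to the highest control, and the difference of 0.75 ± 0.34 did not pass (limma adjusted p = 0.124). Krt31, a close relative that lies next to it, showed the same split on a smaller scale, at 3.75, 3.81, 4.39, 4.55 and 3.72 on the inactivated arrays, against 3.84, 3.78, 3.68 and 3.70 on the controls (0.29 ± 0.17, limma adjusted p = 0.231).

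Krt35, a type I keratin of the hair matrix and cuticle, was the dimmest relative to all probe sets, 14.0% of which had a lower mean. It read 2.17, 2.38, 2.38, 2.86 and 2.06 on the inactivated arrays, against 2.03, 1.93, 2.14 and 2.10 on the controls. Replicate 4 alone was set off from the rest, and the difference of 0.32 ± 0.14 did not pass (limma adjusted p = 0.116). Krt25, Krt31, Krt33b, Krt34, Krt35 and Krt86 had means over all arrays below 4.40, the median over probe sets. Hair keratins are closely related in sequence, and cross-hybridisation between them was not tested.

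Krt84, a type II hair keratin known in human from nail and from the filiform papillae of the tongue, read 5.94, 6.74, 6.69, 7.01 and 6.38 on the inactivated arrays, against 4.14, 5.16, 4.79 and 5.22 on the controls. Every inactivated array lay above every control, and replicates 3 and 4 did not stand apart from replicate 2. Krt84 rose by 1.72 ± 0.25 (95% interval 1.16 to 2.28, limma adjusted p = 0.000631). The two-sided exact permutation p was 0.0159, the smallest that 126 splits of the arrays can give. Without inactivated replicates 3 and 4 the rise was 1.52 (adjusted p = 0.00616).

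Krt79 was the only 1 of the 10 genes that was bright, with 99.6% of probe sets below its mean, and the only 1 that fell. It read 11.84, 11.61, 11.25, 11.65 and 12.21 on the inactivated arrays, against 12.59, 12.62, 12.60 and 12.64 on the controls. The controls were nearly alike (SD 0.02, n = 4), whereas the inactivated arrays spread widely (SD 0.35, n = 5), with replicate 5 nearest to the controls. Krt79 fell by 0.90 ± 0.16 (95% interval -1.25 to -0.56, limma adjusted p = 0.0017, two-sided exact permutation p = 0.0159). Fewer cells of the hair canal and less Krt79 RNA in each cell cannot be told apart in bulk epidermis.

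Variation between mice was shared by the 8 keratins other than Krt79 and Krt84. Across the 28 pairs of these 8, the correlation of deviations from the group means over 9 arrays had a median of 0.87 and ranged from 0.62 to 0.98. Krt84 correlated with them at 0.31 to 0.51 and Krt79 at -0.78 to -0.49. These correlations are descriptions and lean on inactivated replicates 3 and 4.

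The 2 genes whose deviations were most like those of each keratin were named. For Krt25 they were S100a3, a calcium-binding protein of the hair cuticle (r = 0.98, n = 9 arrays), and the inner root sheath keratin Krt28 (r = 0.98). These values were 0.94 and 0.93 once the 2 arrays farthest from the median, inactivated replicates 2 and 4, were left out. For Krt86 they were the hair keratin Krt33a (r = 0.99, and 0.96 without the 2 farthest arrays) and the predicted gene Gm11563 (0.98 and 0.97). The arrays left out for Krt86 were inactivated replicates 4 and 5. Replicate 3 thus stayed in for Krt25 and Krt86, so their values do not show a likeness apart from replicates 3 and 4. For Krt27, Krt71 and Krt33b the arrays left out were inactivated replicates 3 and 4. The 2 genes most like Krt27 were the keratin-associated protein Krtap1-5 (0.98 and 0.82) and the predicted gene Gm11559 (0.98 and 0.54). For Krt71 they were Krtap6-5 (0.96 and 0.79) and Krtap4-6 (0.95 and 0.80), and for Krt33b Krtap22-2 (0.97 and 0.85) and the predicted gene Gm10229 (0.95 and 0.68).

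The likenesses of Krt34 and Krt31 rested on replicates 3 and 4. Krt34 resembled Krtap4-16 and Gm11559 (both r = 0.99), with 0.10 and -0.48 once those arrays were left out. Krt31 resembled Gm11559 (0.98) and the skeletal muscle myosin Myh1 (0.98), with -0.01 and 0.52 without them. Krt84 was closest to the protease inhibitor Spink12 and to Cpeb3 (both 0.89, with 0.83 and 0.70 without the 2 farthest arrays), and Krt79 to Psph, an enzyme of serine synthesis (0.99 and 0.87), and to Mga (0.96 and 0.67). The arrays left out were control replicate 1 and inactivated replicate 1 for Krt84, and inactivated replicates 3 and 5 for Krt79. Krt35 varied too little for this measure.

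**Figure D2:**
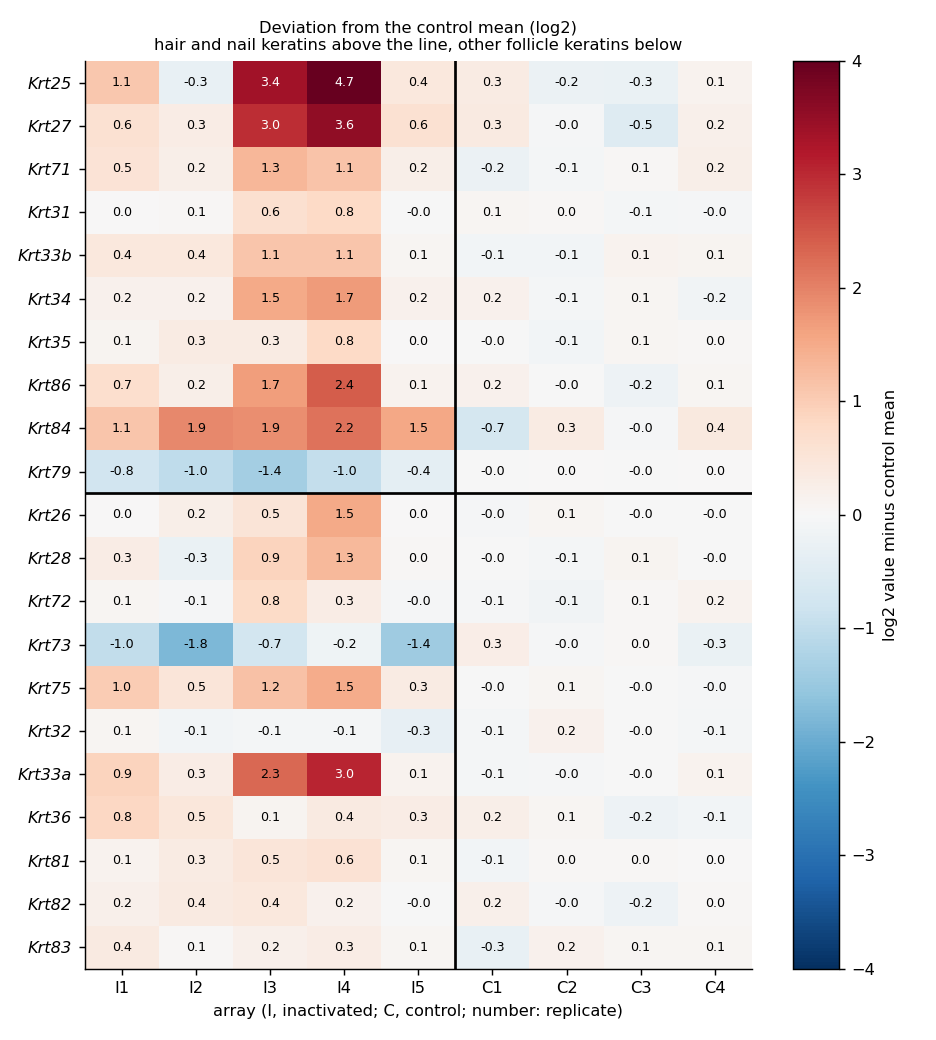
Log2 value minus the control mean for each array (columns; I, inactivated, C, control) and gene (rows), for the 10 hair and nail keratins above the line and the 11 other measured follicle keratins below it, with colours ending at 4. Krt25, Krt27, Krt34, Krt86 and Krt33a are high on inactivated replicates 3 and 4, Krt84 is high on all 5 inactivated arrays, and Krt79 and Krt73 are low.

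The remaining keratins of the hair shaft, inner root sheath and companion layer numbered 11 measured of 16 listed. Of these, 3 were higher, 1 was lower and 7 did not pass, with a median difference of 0.33, where 15.5% of 18193 genes were higher and 18.9% lower (34.4% in either direction) and the median was 0.03. Without overlap between the groups were 3.0 genes higher and 0.0 lower, where 14% and 17.6% of all genes were. Krt75, the keratin of the companion layer, read 4.31, 3.78, 4.47, 4.79 and 3.62 on the inactivated arrays, against 3.28, 3.37, 3.29 and 3.27 on the controls. It rose on all 5 arrays, by 0.89 ± 0.21 (limma adjusted p = 0.00927), and Krt81, a hair shaft keratin, rose by 0.33 ± 0.11 (limma adjusted p = 0.0442).

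Krt73, an inner root sheath keratin, went the opposite way from Krt71. It read 4.86, 4.05, 5.10, 5.66 and 4.43 on the inactivated arrays, against 6.10, 5.80, 5.89 and 5.59 on the controls. Replicate 4, the highest of the inactivated arrays, reached the lower end of the controls, and Krt73 fell by 1.03 ± 0.27 (limma adjusted p = 0.0171). Krt33a read 3.13, 2.52, 4.53, 5.27 and 2.37 on the inactivated arrays, against 2.16, 2.18, 2.22 and 2.37 on the controls, and its difference of 1.33 ± 0.53 did not pass (limma adjusted p = 0.0864).

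Keratin-associated proteins, the crosslinked matrix around the filaments of the hair shaft, were measured as 38 genes, of which 7 were higher, none was lower and 31 did not pass (median 0.38), where 15.5% of all genes were higher and 18.9% lower. All but 1 had a positive difference. They followed the hair keratins array by array: 33 of 38 lay above the highest control on replicate 3 (38.4% of all genes did) and 33 on replicate 4 (34% of all genes). It was 25 on replicate 1 (33%), 24 on replicate 2 (37.8%) and 11 on replicate 5 (32.1%). At least 1 above the control mean were 13 genes on replicate 3 and 13 on replicate 4, and it was 3, 1 and 1 genes on replicates 1, 2 and 5. Of all genes, 3.39%, 2.68%, 3.19%, 3% and 2.12% did so on replicates 1 to 5.

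Krtap22-2 had the lowest adjusted p of this family. It read 4.36, 4.19, 5.78, 6.05 and 3.95 on the inactivated arrays, against 2.70, 2.74, 2.84 and 3.02 on the controls, and rose by 2.04 ± 0.41 (limma adjusted p = 0.00394). Every inactivated array was above the controls, with replicates 3 and 4 highest. Krtap19-9b and Krtap3-1 rose by 0.69 ± 0.20 and 0.43 ± 0.13.

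**Figure D3:**
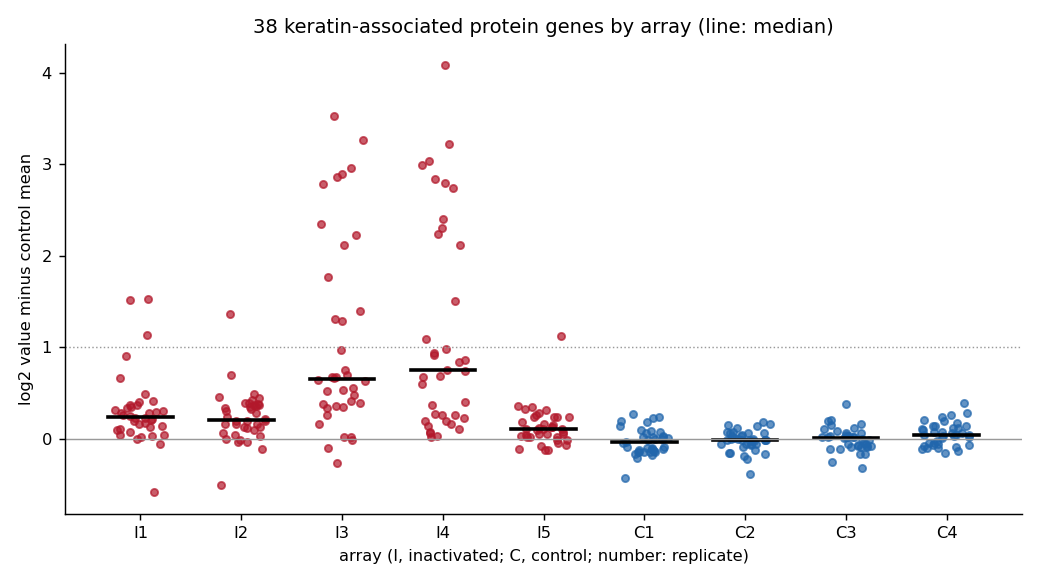
Log2 value minus the control mean (y axis) of 38 keratin-associated protein genes on each array (x axis; I, inactivated, C, control), 1 point a gene, with the median as a line and a dotted line at 1. Medians are 0.24, 0.20, 0.65, 0.75 and 0.11 on inactivated replicates 1 to 5, against -0.04 to 0.04 on the controls.

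Structural proteins of the hair shaft and inner root sheath, several of which the epidermis makes as well, were higher in 6 of 13 measured genes and lower in 1, with 6 not passing (median 0.64). Of all genes, 15.5% were higher and 18.9% lower. The transglutaminase Tgm3 rose by 2.15 ± 0.21, gasdermin Gsdma by 0.77 ± 0.08 and corneodesmosin Cdsn by 0.76 ± 0.09. Trichohyalin (Tchh), a protein of the inner root sheath chosen after its values were seen, read 4.94, 5.18, 6.27, 7.01 and 4.83 on the inactivated arrays, against 3.80, 2.44, 2.92 and 3.29 on the controls. It rose on all 5 arrays, by 2.53 ± 0.45 (limma adjusted p = 0.00195), with replicates 3 and 4 highest.

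Of 14 transcription factors of the follicle, 2 were higher, 7 lower and 5 did not pass (median -0.25), where 15.5% of all genes were higher and 18.9% lower. Gata3, a factor of the inner root sheath, fell by 1.50 ± 0.16 and Cux1 by 0.59 ± 0.08, while Ovol1 rose by 1.00 ± 0.13. Hr, the gene mutated in hairless mice and chosen after its values were seen, fell by 0.37 ± 0.08 (limma adjusted p = 0.00524). Among regulators of hair keratin genes, likewise picked with their values known, Foxn1 rose by 0.33 ± 0.11 (limma adjusted p = 0.0383), and Hoxc13, Msx2 and Lef1 had differences of -0.14, 0.07 and 0.01 and did not pass. The rest of the list held more falls: Vdr, Foxq1, Runx1 and Trps1 fell by 1.32, 0.87, 0.73 and 0.36 and passed. Msx1 and Dlx3 had differences of 0.21 and 0.17 and did not pass.

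Genes of the upper follicle and sebaceous duct, the site of Krt79, had 3 of 10 higher, 4 lower and 3 not passing (median -0.13), where 15.5% of all genes were higher and 18.9% lower. Gata6, a factor of the sebaceous duct, fell by 1.18 ± 0.09 and the stem cell receptor Lgr6 by 2.08 ± 0.23, while Teddm3 rose by 1.00 ± 0.08. In the list of the bulge and outer root sheath, 5 of 10 fell, 1 rose and 4 did not pass (median -0.48), against the same shares of all genes. Krt15, which also marks basal epidermis, fell by 3.22 ± 0.21, Nfatc1 by 0.97 ± 0.10 and Cd34 by 1.30 ± 0.22.

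Markers of other cells moved with some of these arrays, and their part in the result was not tested. None of the 5 skeletal muscle markers passed in the comparison of the groups. All 5 lay at least 1 above the control mean on inactivated replicate 4, where 3% of all genes did. Their summed linear level was 1011 there, 69.9 to 115 on the 4 remaining inactivated arrays, and 66.3 to 87.1 on the controls. The adipocyte sum (3 genes) reached 1729 on replicate 4. It was 268 to 512 on the 4 remaining inactivated arrays, and 109 to 671 on the controls. Replicate 3, where the hair keratins were also high, had a muscle sum of 115 and an adipocyte sum of 436. Myh1, the muscle myosin close to Krt31 and no member of the marker list, read 1.53, 2.11, 5.20, 7.08 and 1.61 on the inactivated arrays, against 1.57, 1.69, 1.54 and 1.52 on the controls. It was thus high on replicate 3 as well as on replicate 4.

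Of the melanocyte markers, 7 of 8 rose and 1 did not pass (median 1.15), where 15.5% of all genes were higher and 18.9% lower. Their sums were 518, 734, 778, 470 and 434 on inactivated replicates 1 to 5, against 306 to 355 on the controls, and so were highest on replicates 2 and 3. All 8 measured fibroblast markers fell (median -1.05), with sums of 9706 to 16537 on the inactivated arrays and 17960 to 29996 on the controls. Dermal papilla markers had 1 of 8 lower and 7 not passing, and their sums were 207 to 229 on the inactivated arrays and 256 to 317 on the controls. Immune markers had 3 of 6 lower, none higher and 3 not passing, and endothelial markers 1 of 5 higher, 1 lower and 3 not passing. The counts of all these lists stand against the same shares of all genes. The lowest marker value on any array was 1.38, among the dermal papilla markers. The arrays themselves had lowest values of 0.97 to 1.24, so no marker could read 0. Readings this low do not show that a cell type was present.

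**Figure D4:**
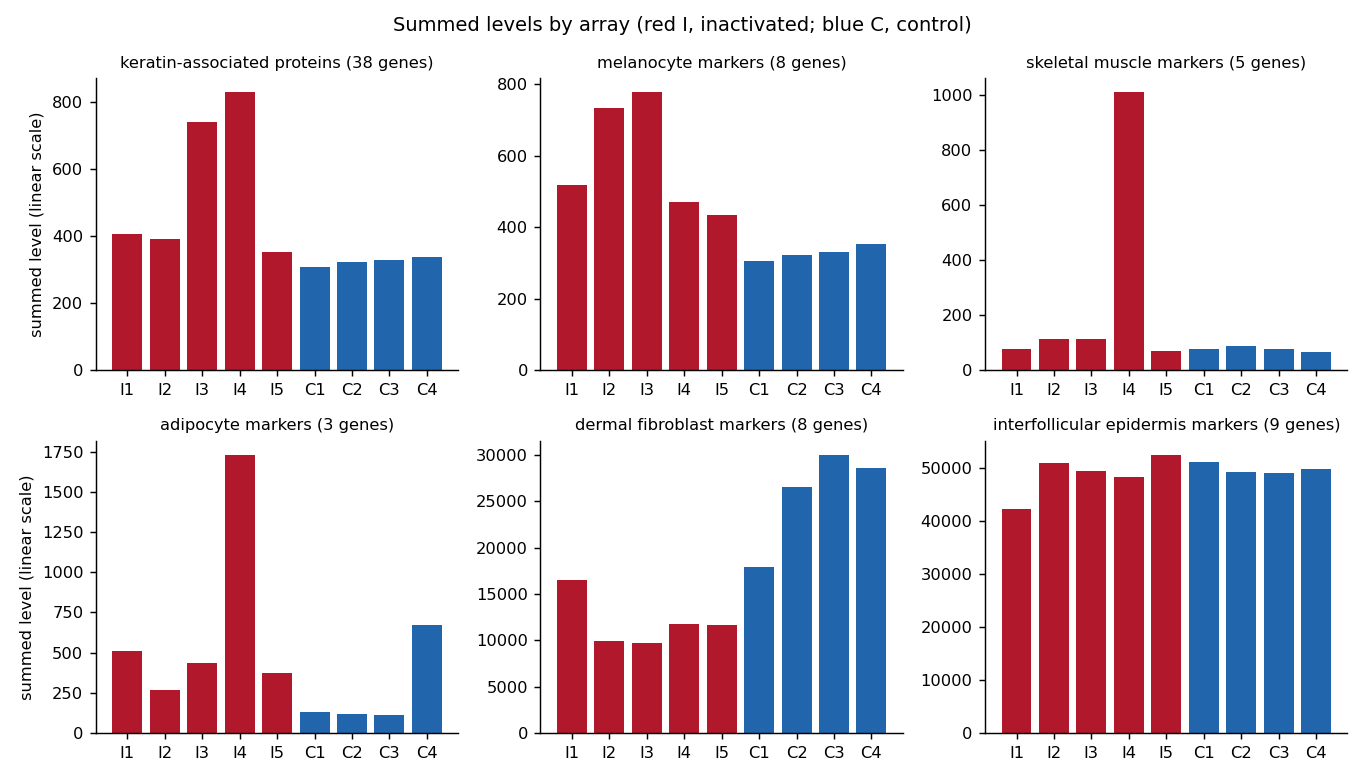
Summed level (linear scale, y axis from 0) of 6 gene lists on each array (x axis; red I, inactivated, blue C, control). The keratin-associated proteins are highest on inactivated replicates 3 and 4 (741 and 829), the skeletal muscle and adipocyte markers on replicate 4, and the melanocyte markers on replicates 2 and 3.

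Set among all keratins, the 10 genes lie in 2 clusters, 6 of them among the type I genes on chromosome 11 and 4 among the type II genes on chromosome 15. Stretches of neighbours, whose ends were chosen with the values known, had differences of the same sign, most of which did not pass. Of all 18193 genes, 9953 had a positive difference. In the type I cluster Krt25, Krt26, Krt27 and Krt28 had 1.86, 0.46, 1.60 and 0.45, and Krt33a, Krt33b, Krt34 and Krt31 had 1.33, 0.62, 0.75 and 0.29. Krt32, which follows Krt31, had -0.10. Every measured type II gene in the stretch that starts at Krt80 and ends at Krt6a, with Krt86 and Krt84 in it, had a positive difference. Krt5, which follows Krt6a, had -0.07. Further along, Krt71 rose while Krt73, a few genes along the type II cluster, fell by 1.03, and Krt2 and Krt77 between Krt73 and Krt79 fell by 7.05 and 7.09. Of the 38 other measured keratins of both clusters, 10 were higher, 5 lower and 23 did not pass, where 15.5% of all genes were higher and 18.9% lower. All 4 stress keratins rose, Krt16 by 3.43 ± 0.17, Krt6a by 2.65 ± 0.22 and Krt6b by 2.31 ± 0.18, and Krt17 by 0.66 ± 0.07. Each rose without overlap on all 5 arrays, where 14% of all genes did. Krt6b read the highest value of each inactivated array, so its difference may be understated. The difference between these lists and the hair keratins was not tested.

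**Figure D5:**
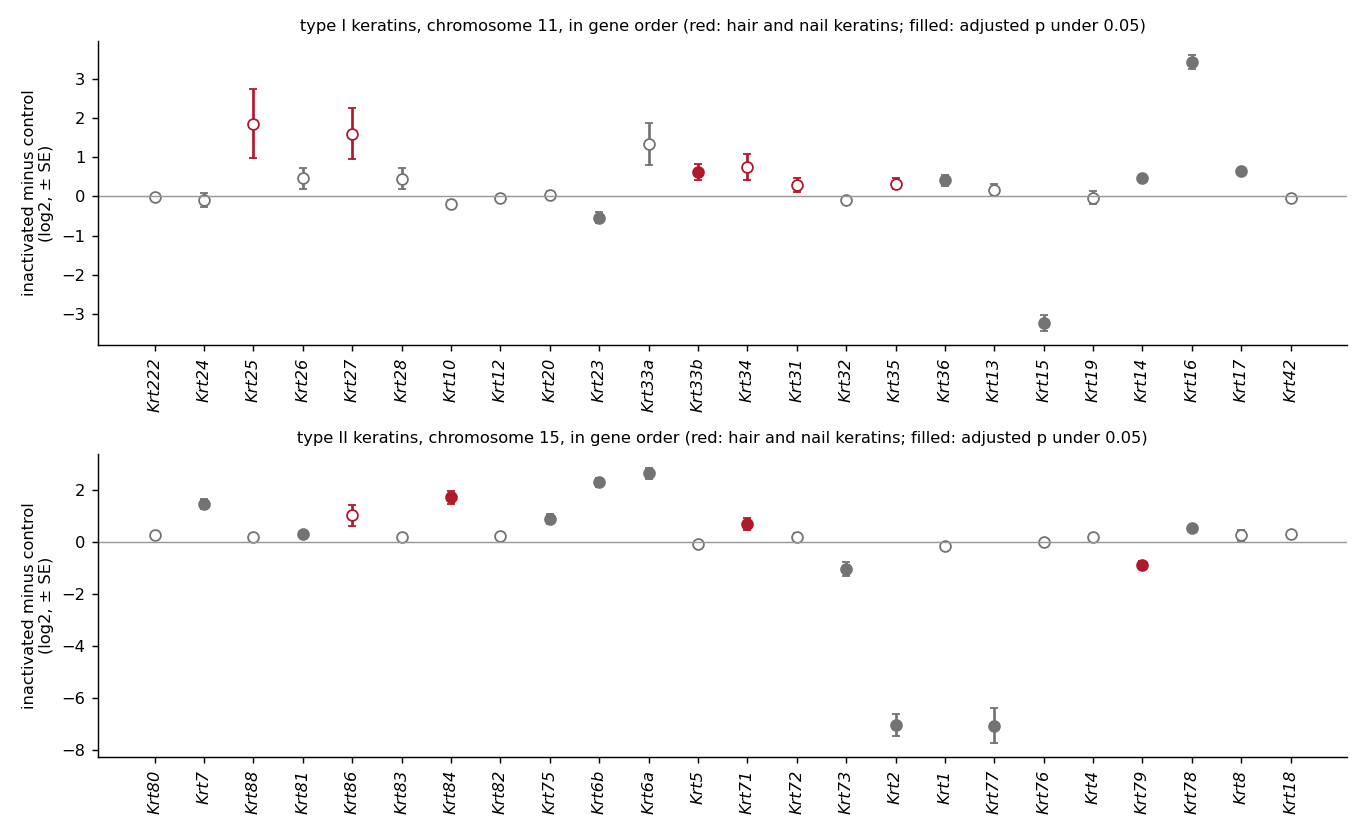
Inactivated minus control (log2; bars are the SE from limma, with 5 inactivated and 4 control arrays) of every measured keratin in gene order along the type I cluster (top) and the type II cluster (bottom), with the 10 hair and nail keratins in red and filled points for adjusted p under 0.05. Krt33b, Krt71 and Krt84 are filled above 0 and Krt79 below 0, and Krt25, Krt27 and Krt33a have the longest error bars among the type I genes.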

How the data were processed

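RNA of epidermal sheets was labelled from the 3′ end and hybridised to Affymetrix Mouse Genome U430 2.0 arrays, per the labels' protocols. The authors deposited log2 values for 45037 probe sets on 9 arrays. The submitters' processing notes name affy. Background correction, normalisation and summary go unnamed (not given in the sources used here), and log2 was read from the range of the values. All 9 columns were used as deposited.

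Platform annotation named 34945 probe sets for 1 gene, 932 for several and left 9160 unnamed. A gene was read through the probe set of highest mean. Groups were compared with limma 3.58.1 (R 4.3.3, 7 residual degrees of freedom, adjusted over all probe sets, threshold 0.05), checked on simulated arrays. In these few probe sets changed and both groups had the same spread. The check thus does not cover genes of unequal spread, such as Krt25 (SD 2.11 in the inactivated group, 0.29 in controls). Likeness was Pearson's r of deviations from group means among genes with an SD of at least 0.25.

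Members and lists were chosen with earlier results of these data known. Named genes were all members; up to 3 of each pathway list with the lowest adjusted p among those that passed, or the 2 with the highest mean where none did; the marker with the highest mean of each cell type list; the 2 genes most like each member; and Alox12b, and others are said to be chosen later. Not all are printed. Alternatives were quantile normalisation, array medians, a dim filter at the median, an intensity trend, weighted arrays, a block for the replicate number, Xist level as a covariate (the labels give no sex), the mean of a gene's probe sets, probe set suffixes, a 0.01 threshold, and omission of each array in turn. Replicates are biological per the labels.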

Additional observations from a re-analysis of the deposited data

Results flagged for a closer look

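Arrays far from the rest of their group were sought among the hair and nail keratins and the named genes (118 groups), and chance alone gives about 1 in 20 groups. The check looks for 1 far array at a time, so 2 arrays that are high together, such as inactivated replicates 3 and 4 for 7 of the keratins, cannot be found by it, and that no hair or nail keratin is listed here says nothing about them. Inactivated replicate 2 was low for Scd3 (3.82, against 4.88 to 5.19 on the other inactivated arrays), and inactivated replicate 5 was low for Krt16 (13.21, against 13.37 to 13.41). Among the controls, replicate 1 was low for Krt81 (5.27, against 5.41 to 5.43) and replicate 3 for Krt6a (9.48, against 10.56 to 10.77). Control replicate 4 was high for the adipocyte marker Fabp4 (9.22, against 6.42 to 6.56) and for Gm11563 (2.34, against 2.11 to 2.13).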

How the results depend on the processing

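Krt84 stayed higher and Krt79 lower under all 19 alternatives run for each, with differences of 1.49 to 1.88 and -1.03 to -0.73. No difference of the 10 genes changed sign under any alternative run. The number of higher genes, 3, moved: it was 8 with array weights, 1 with the Xist level as a covariate, 1 at a threshold of 0.01, 1 without inactivated replicates 3 and 4 together, and 1 to 4 when 1 array was left out (1 without inactivated replicate 3 or 4 or any control). The number of lower genes was 1 throughout. With array weights Krt25, Krt27, Krt34, Krt35 and Krt86 passed as well; the cause was not tested. With the Xist level as a covariate Krt71 (adjusted p = 0.0848) and Krt33b (0.0912) were lost. The median difference of 0.72 ranged from 0.32 to 0.86 in the alternatives that kept all 10 genes. With the dim filter it was 1.15, a median of 4 genes, among which Krt27 passed the filter only through the inactivated group. Same-numbered replicates of the 2 groups did not deviate together (correlations of -0.27 to 0.08, and 1 of 4 inactivated arrays correlated best with its own number). With so few numbers this cannot decide whether the mice were paired, and the main comparison used no pairing. With the replicate block, which also drops inactivated replicate 5 for want of a control of that number, 4 genes were higher, with Krt86 among them (adjusted p = 0.0442), and 1 was lower. Leaving out that array without a block gave the same counts (Krt86 adjusted p = 0.0406). The dim filter kept 4 genes, Krt27, Krt71, Krt79 and Krt84. The uneven hair keratin levels among 5 inactivated mice limit every mean above.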

Other observations

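Sebaceous gland genes, whose duct is the site of Krt79, showed no shared direction: of 9 measured of 13 listed, 1 was higher, 1 lower and 7 did not pass (median -0.06, limma with Benjamini-Hochberg adjustment). Of all genes, 15.5% were higher and 18.9% lower. Cidea, a lipid droplet protein, rose by 0.51 ± 0.16, and the desaturase Scd3 fell by 1.66 ± 0.51, and both overlapped between the groups. The summed linear level of the list was 11372, 4164, 5765, 9559 and 10269 on inactivated replicates 1 to 5, against 7737 to 10015 on the controls. It was therefore low on replicates 2 and 3 and not on replicate 4, a different order of the mice from that of the hair keratins.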
